A study of Mus musculus with 6 samples.

Results

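The 9 genes described here encode the B cell antigen receptor and its secreted form: the immunoglobulin constant chains Ighm, Ighg2c, Igkc and Iglc2, the receptor's signalling pair Cd79a and Cd79b, the surface protein gene Ms4a1, and Jchain and Mzb1, which serve the assembly of secreted antibody. They were taken by symbol, and 9 of 9 had a row among the 23494 genes of the deposited table. Values are TPM, a length-corrected share of each library, in 3 libraries of vehicle-treated mice and 3 of mice treated with recombinant MANF (rMANF), a stress-induced protein of the endoplasmic reticulum. All 6 came from wild type female C57BL/6 mice carrying subcutaneous B16F10 melanoma. Treatment began at a mean tumour volume near 60 mm3, with 8 mice randomised per group, and consisted of daily intraperitoneal rMANF at 2 µg/kg or PBS. Column names of the vehicle libraries begin with IgG, although the labels give PBS as their treatment. Replicates are labelled biological and were taken to be separate mice, whose age the labels do not state; p-values measure the spread between these samples.

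B cells carry membrane immunoglobulin bound to the Cd79a and Cd79b proteins, whose tails pass the antigen signal to kinases. When a B cell becomes a plasma cell, it lowers much of this surface machinery, raises transcription of the rearranged heavy and light chain genes and adds the joining chain encoded by Jchain, which links IgM and IgA into polymers. Transcripts of the constant genes are therefore abundant in a single plasma cell, whereas Cd79a, Cd79b and Ms4a1 follow the number of B cells more closely. In a bulk library, fewer cells of a type and less RNA per cell cannot be told apart.

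Several libraries and the tissue label need care. Markers of heart muscle were mostly low: of the 9 with rows, of 12 listed, 4 stayed under 1 TPM in every library. Named after their values were seen, Nppa reached at most 0.541 TPM and Actc1 at most 0.905 TPM. By contrast, Tnnt2 measured 4.86 to 11.5 TPM and Tnni3 1.12 to 6.11 TPM over the 6 libraries. Myl2 reached 14.9 TPM in vehicle replicate 2, which also had the most skeletal muscle RNA. It measured 1.15 TPM in vehicle replicate 1 and was listed at 0 in vehicle replicate 3 and all rMANF libraries. The 9 markers summed to 7.47 to 31.6 TPM under vehicle, highest in replicate 2, against 7.90 to 10.99 TPM under rMANF. The libraries are therefore called libraries labelled heart. Skeletal muscle RNA was uneven, with a sum over 12 markers of 109, 1215 and 27.7 TPM in the vehicle replicates and of 7.10 to 19.4 TPM in the rMANF replicates. The 6 measured markers of red blood cells were highest in vehicle replicate 3 (682 TPM, against 196 to 373 TPM in the other 5 libraries). Vehicle libraries had more macrophage RNA (2452 to 2974 TPM over 10 markers, against 1555 to 2150 TPM) and T cell RNA (41.5 to 121 TPM over 10 markers, against 23.8 to 39.9 TPM). The part of these differences in the results below was not tested. Depth is unknown, because TPM keeps no read numbers.

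The lambda constant genes Iglc2 and Iglc3 resemble each other closely. Iglc2 and Iglc3 were identical at 431 of 452 aligned bases of their transcripts (95.4%), whereas Iglc2 and Iglc1 matched at 307 of 449 (68.4%). The first 180 aligned bases of both, on the minus strand of chromosome 16 (GRCm38, GENCODE M21), are shown because reads from them can be assigned to the wrong copy. Capitals mark the 7 bases at which they differ.
Iglc2, chr16:19198673-19198852: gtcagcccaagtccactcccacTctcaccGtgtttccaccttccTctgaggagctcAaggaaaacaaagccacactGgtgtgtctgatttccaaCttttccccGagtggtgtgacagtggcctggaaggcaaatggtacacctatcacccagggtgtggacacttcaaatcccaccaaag
Iglc3, chr16:19065502-19065681: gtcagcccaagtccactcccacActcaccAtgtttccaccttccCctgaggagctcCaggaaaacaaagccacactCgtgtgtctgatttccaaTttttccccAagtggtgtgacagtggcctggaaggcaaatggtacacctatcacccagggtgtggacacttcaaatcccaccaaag
The stretch after the last capital is the same in both genes, so a read falling wholly within it cannot be assigned to either copy. The values of Iglc2 and Iglc3 are uncertain for that reason. Ighg2c and Ighg2b matched at 960 of 1111 bases (86.4%), so reads from the bases they share are uncertain too.

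Kappa light chain and mu heavy chain transcripts were the most abundant members, and their highest values were in vehicle replicate 1. Of the 6 members with a mean of at least 1 TPM, 5 lay lower with rMANF and 1 higher, with a median log2 difference of −0.64, but the groups overlapped for each of the 6 and 0 passed limma's test. Over all 12865 genes that could be tested, 42.7% lay lower and 57.3% higher, the median was 0.04 and limma called 0 (0%). Of the 6 members 1, Igkc, had an unadjusted p under 0.05 with a lower value, against 6.63% of all tested genes. With a higher value 0 of the 6 did, against 13.9%. The 3 members under the filter were Ms4a1, Iglc2 and Mzb1. Summed over the 9 members, expression was 227, 81.9 and 37.8 TPM in vehicle replicates 1 to 3, against 24.1, 24.3 and 42.6 TPM in rMANF replicates 1 to 3, so that rMANF replicate 3 exceeded vehicle replicate 3. The plot of the 9 genes by library shows that vehicle replicate 1 was highest for Igkc, Iglc2, Ighm and Jchain, and vehicle replicate 2 for Ighg2c and Mzb1.

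**Figure D1:**
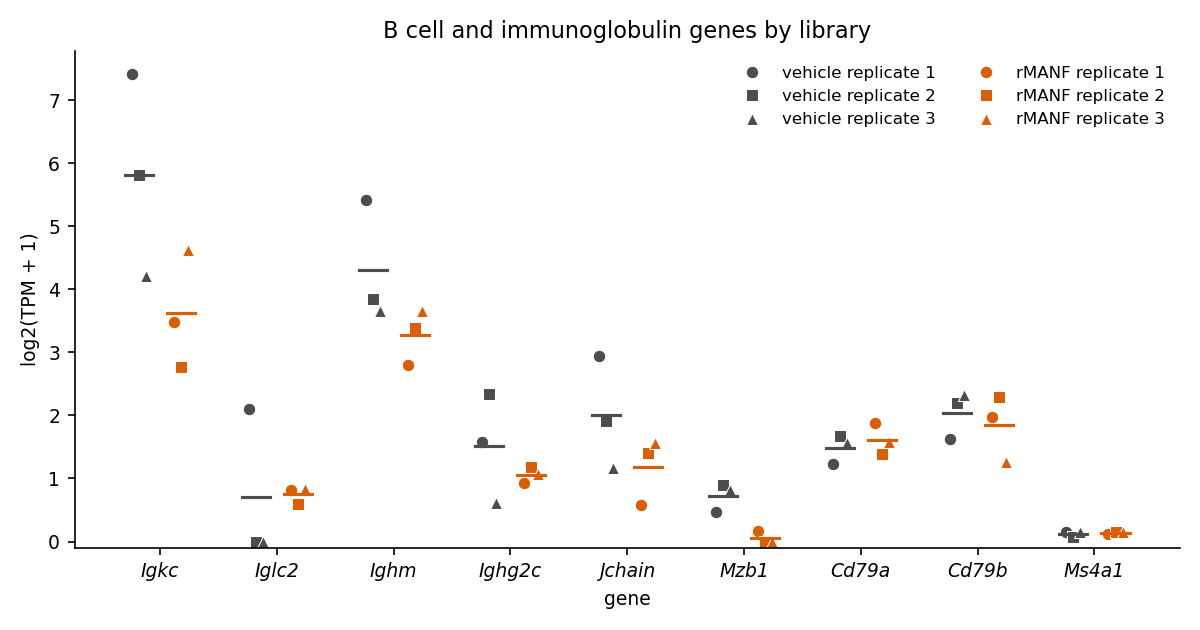
Expression of the 9 B cell and immunoglobulin genes as log2(TPM + 1) in each library, with vehicle in grey and rMANF in orange, replicates by symbol and group means as lines. Vehicle replicate 1 has the highest Igkc, Ighm, Iglc2 and Jchain, while Cd79a, Cd79b and Ms4a1 overlap between the groups.

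Igkc (chromosome 6, 70726435 to 70726966), the kappa constant gene, measured 170, 55.1 and 17.6 TPM in vehicle replicates 1 to 3, against 10.1, 5.79 and 23.7 TPM in rMANF replicates 1 to 3. The vehicle libraries thus spread more widely among themselves than the rMANF libraries did, and rMANF replicate 3 lay above vehicle replicate 3. Group means were 80.8 ± 79.2 and 13.2 ± 9.32 TPM (SD, n = 3 each), and the log2(TPM + 1) difference of −2.19 ± 0.77 (SE) did not pass (limma, Benjamini-Hochberg adjusted p = 0.173). Without vehicle replicate 1 the difference was −1.39 (limma, adjusted p = 0.219), and without vehicle replicates 1 and 2 together −0.59 (limma, adjusted p = 0.776).

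Ighm (chromosome 12, 113418558 to 113422730), the heavy chain of IgM, measured 41.8, 13.3 and 11.6 TPM under vehicle, against 5.93, 9.47 and 11.7 TPM under rMANF, in replicate order. Vehicle replicate 1 stood far above the rest, and vehicle replicate 3 and rMANF replicate 3 had nearly the same value. The means were 22.3 ± 17.0 and 9.02 ± 2.89 TPM (SD, n = 3 each), with a log2 difference of −1.03 ± 0.45 (SE; limma, adjusted p = 0.246). Leaving out vehicle replicate 1 gave −0.47 (limma, adjusted p = 0.277), and leaving out vehicle replicate 2 as well gave −0.38 (limma, adjusted p = 0.708). Ighm made up 62.2% to 87.3% of the summed heavy chain constant TPM in every library, so IgM was the leading isotype in both groups.

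Ighg2c (chromosome 12, 113285325 to 113288932) is the IgG2 gene that C57BL/6 mice carry in place of Ighg2a. Its values were 1.99, 4.04 and 0.529 TPM under vehicle, against 0.901, 1.26 and 1.10 TPM under rMANF. The lowest and the highest of the 6 were both vehicle libraries. The log2 difference was −0.45 ± 0.40 (SE; limma, adjusted p = 0.567), and it was −0.04 without vehicle replicate 2, which had the most skeletal muscle RNA. Its sign turned, to 0.44, when vehicle replicate 1 was left out too.

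The other heavy chain constant genes were lower still. Igha, the heavy chain of mucosal IgA, measured 1.74, 1.90 and 0.797 TPM under vehicle, against 0.357, 0.612 and 0.466 TPM under rMANF. Ighg1 measured 1.00, 0.400 and 0.871 TPM under vehicle, against 0.157 and 0.210 TPM in rMANF replicates 1 and 2, and was listed at 0 in rMANF replicate 3. The groups did not overlap for these 2 of the 7 heavy constant genes, against 7.01% of all listed genes with rMANF lower, and both were under the filter at 1 TPM and so were not tested. Ighg2b, Ighg3 and Ighd overlapped between groups and reached at most 1.44, 0.969 and 0.295 TPM. IgG genes together held 8.89% to 27.5% of heavy chain constant TPM under vehicle, against 9.99% to 18.8% with rMANF, so the isotype shares overlapped while the total ran from 14.5 to 47.9 TPM with vehicle and from 8.03 to 13.6 TPM under rMANF.

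Lambda constant transcripts were fewer than kappa transcripts in every library. Iglc2 (chromosome 16, 19198396 to 19200351) measured 3.31 TPM in vehicle replicate 1, was listed at 0 in vehicle replicates 2 and 3, and measured 0.767, 0.514 and 0.785 TPM under rMANF. Iglc3 followed the same pattern of zeros, with 1.03 TPM in vehicle replicate 1 and 1.56, 2.10 and 0.540 TPM under rMANF. Iglc1 had other zeros, at 1.01 and 1.49 TPM in vehicle replicates 1 and 2 and listed at 0 in the other 4 libraries. Summing the 3 lambda genes removes the uncertain split between Iglc2 and Iglc3, and gives 5.35, 1.49 and 0 TPM under vehicle, against 2.33, 2.62 and 1.32 TPM under rMANF. These sums overlapped between the groups (exact two-sided permutation p = 0.9). As a share of light chain constant TPM, lambda was 3.06%, 2.64% and 0% with vehicle and 18.6%, 31.1% and 5.30% with rMANF. The shares did not overlap (exact two-sided permutation p = 0.1, the smallest possible), alongside the lower Igkc that forms the rest of the same sum. Both groups' constant genes are drawn library by library in the stacked bars.

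**Figure D2:**
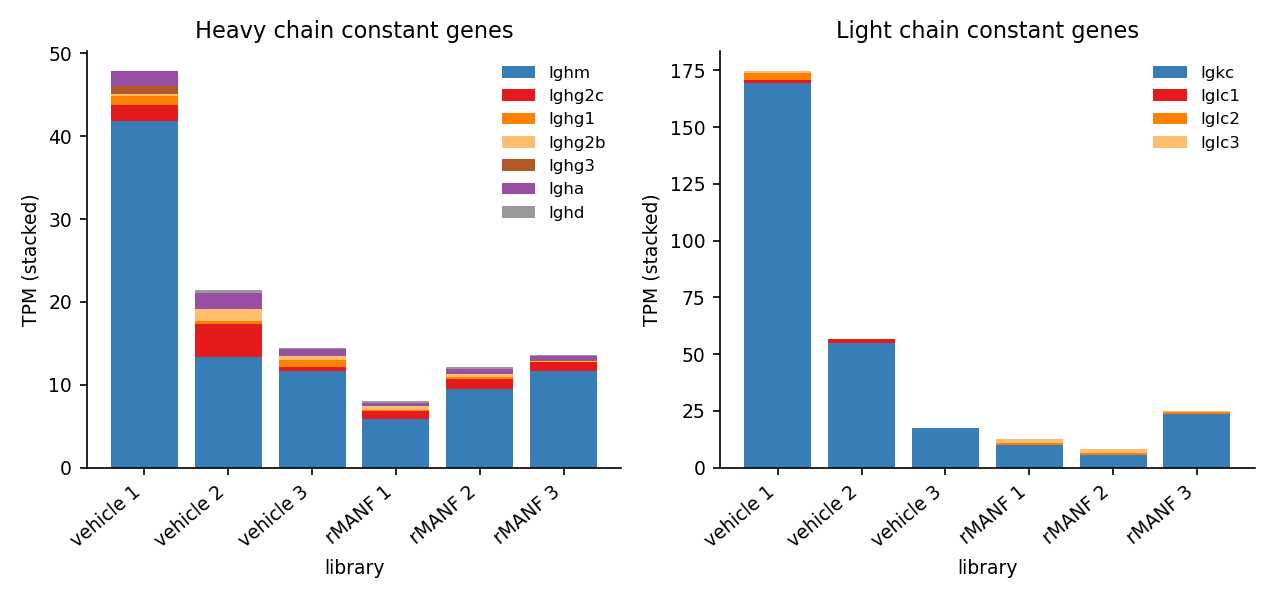
TPM of the immunoglobulin heavy chain (left) and light chain (right) constant genes in each library, stacked by gene. Ighm and Igkc form most of each bar, and the tallest bars are those of vehicle replicate 1 (47.9 TPM heavy chain).

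Jchain (chromosome 5, 88519809 to 88527891) had its highest values in the same libraries as Ighm and Igkc. It measured 6.70, 2.78 and 1.25 TPM under vehicle, against 0.497, 1.63 and 1.95 TPM under rMANF, so vehicle replicate 3 lay below rMANF replicates 2 and 3. The log2 difference of −0.83 ± 0.45 (SE; limma, adjusted p = 0.343) was −0.36 without vehicle replicate 1 and 0.0095 when vehicle replicate 2 was left out as well. Mzb1 (chromosome 18, 35647267 to 35649367) encodes an endoplasmic reticulum protein that aids immunoglobulin folding and secretion and binds the chaperone Grp94. It measured 0.386, 0.862 and 0.758 TPM under vehicle, against 0.129 TPM in rMANF replicate 1, and was listed at 0 in rMANF replicates 2 and 3. Mzb1 was the only 1 of the 9 members whose groups did not overlap (7.01% of all listed genes lay lower in this way). It lay under the filter, and its exact two-sided permutation p of 0.1 is the smallest that 3 against 3 libraries allow.

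The receptor's signalling pair did not share the pattern of the immunoglobulin genes. Cd79a (chromosome 7, 24897381 to 24902197) measured 1.35, 2.18 and 1.97 TPM under vehicle, against 2.68, 1.61 and 1.97 TPM under rMANF. Its lowest value was in vehicle replicate 1, where Igkc and Ighm were highest. The log2 difference was 0.12 ± 0.21 (SE; limma, adjusted p = 0.785). Cd79b (chromosome 11, 106311341 to 106314762) measured 2.09, 3.57 and 3.99 TPM under vehicle, against 2.95, 3.91 and 1.41 TPM under rMANF, a log2 difference of −0.20 ± 0.30 (SE; limma, adjusted p = 0.758). Ms4a1 (chromosome 19, 11249675 to 11266241), which encodes the B cell surface protein CD20, was near 0 throughout, at 0.112, 0.0532 and 0.109 TPM under vehicle, against 0.0838, 0.112 and 0.113 TPM under rMANF. The plot of differences shows how far each estimate moved when libraries were left out.

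**Figure D3:**
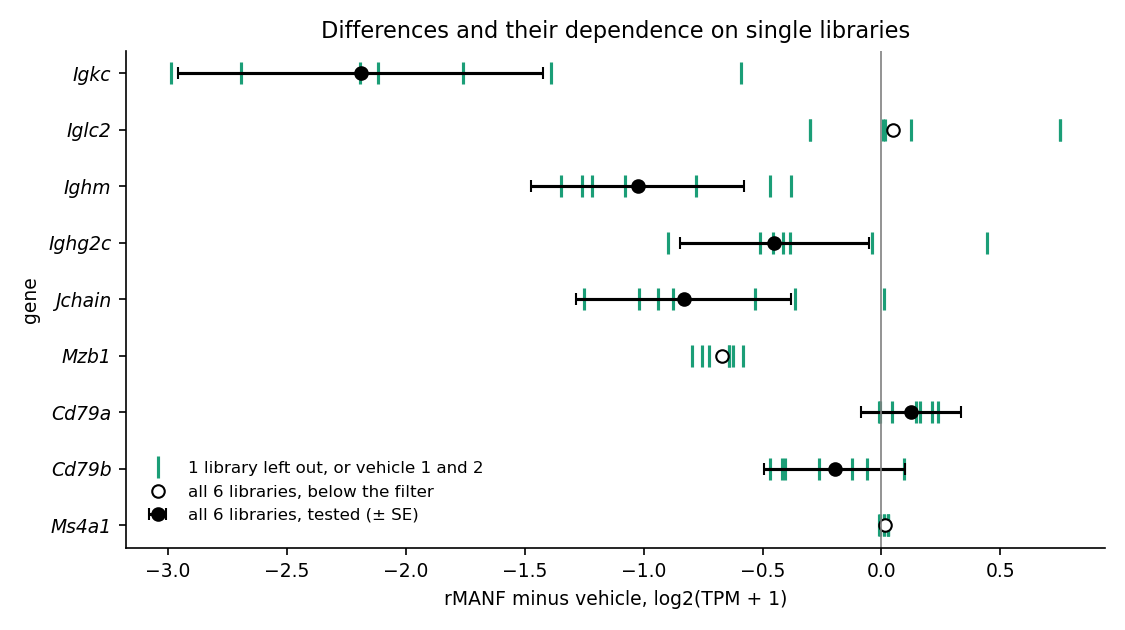
Difference between rMANF and vehicle on the log2(TPM + 1) scale for the 9 genes, with filled points and SE bars for tested genes, open points for genes under the filter, and green ticks for fits without 1 library or without vehicle replicates 1 and 2. Igkc, Ighm and Mzb1 stay below 0 at every tick, whereas Ighg2c and Jchain reach 0.44 and 0.0095.

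Antibody variable genes, which are rearranged in each B cell clone, were listed above 0 more often in the vehicle libraries. The table held 58 of them (21 heavy, 35 kappa and 2 lambda), and no gene of the table was at 0 in all 6 libraries. Vehicle replicates 1, 2 and 3 had 18, 23 and 25 variable genes above 0, and rMANF replicates 1, 2 and 3 had 6, 12 and 6. Every vehicle library exceeded every rMANF library, with means of 22.0 ± 3.61 and 8.00 ± 3.46 (SD, n = 3 each; exact two-sided permutation p = 0.1, the smallest possible). The number of all genes above 0 was 19003, 19298 and 19246 with vehicle and 18953, 19056 and 18830 with rMANF. Counting only values of at least 1 TPM, a choice made after seeing the data, gave 16, 18 and 22 against 6, 12 and 5. The part of read depth in these counts was not tested.

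Counting variable genes was itself chosen after the data were seen. Vehicle replicate 1, the library with the highest Igkc and Ighm, had the fewest variable genes of the 3 vehicle libraries. Their summed expression was 107, 86.4 and 57.6 TPM under vehicle, against 13.6, 26.3 and 35.3 TPM under rMANF. Most were private to a library: 38 of 58 were above 0 in 1 library and 14 in 2, whereas 3 were above 0 in 5 libraries and 0 in all 6. By group, 38 appeared only with vehicle, 8 only with rMANF and 12 with both. Of the 58 genes, 15 passed the filter at 1 TPM and 0 of these were called by limma. At an unadjusted p under 0.05, 3 of the 15 lay lower (6.63% of all tested genes) and 0 higher, namely Igkv10-96 and, named after their values were seen, Igkv6-32 and Igkv4-55. Igkv6-32 measured 2.36, 3.69 and 1.32 TPM in vehicle replicates 1 to 3 and was listed at 0 in all rMANF libraries (limma, adjusted p = 0.0893). Igkv4-55 measured 9.09 and 4.30 TPM in vehicle replicates 2 and 3 and was listed at 0 in the other 4 libraries (limma, adjusted p = 0.199). Both passed the filter through vehicle libraries alone and so had to lie lower, and nothing is read from the 3 of 15.

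The most abundant variable genes by mean were Igkv14-126, Igkv10-96 and Iglv2. Igkv14-126 (chromosome 6, 67896172 to 67896642) measured 39.0, 1.42 and 3.07 TPM with vehicle, was listed at 0 in rMANF replicate 1 and measured 2.92 and 19.9 TPM in rMANF replicates 2 and 3. It was thus high in 1 library of each group. Igkv10-96 measured 7.92, 13.9 and 4.52 TPM under vehicle, against 1.43 and 3.01 TPM in rMANF replicates 2 and 3, and was listed at 0 in rMANF replicate 1, so its groups did not overlap (log2 difference −2.08 ± 0.53, SE; limma, adjusted p = 0.112). Groups did not overlap in this direction for 9.02% of tested genes. Iglv2 was listed above 0 in vehicle replicate 1 (17.8 TPM) and rMANF replicate 3 (4.69 TPM) alone.

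**Figure D4:**
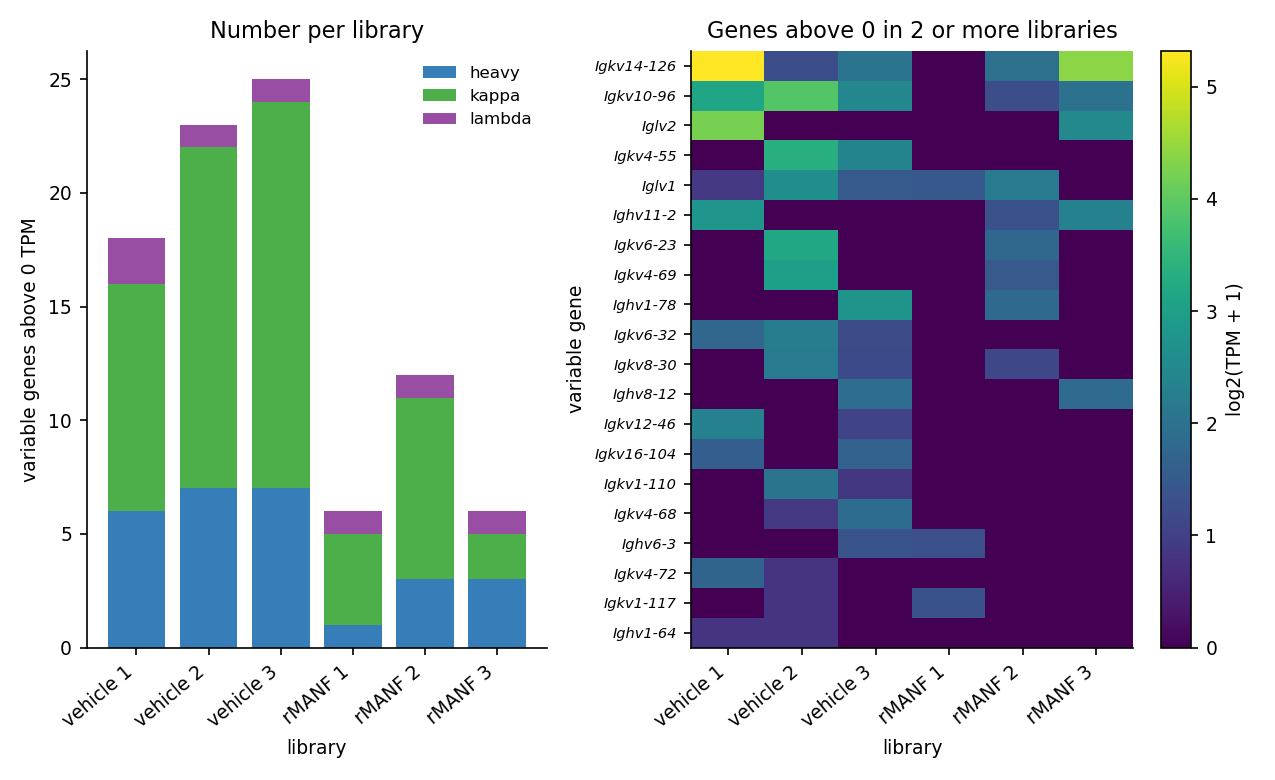
Number of immunoglobulin variable genes above 0 TPM in each library by chain (left), and log2(TPM + 1) of those above 0 in at least 2 libraries (right, rows ordered by mean TPM). Bars reach 18 to 25 genes with vehicle and 6 to 12 with rMANF, and Igkv14-126 is brightest in vehicle replicate 1 and rMANF replicate 3.

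Ighv11-2, picked out after its values were seen, is a heavy chain gene known to pair with Igkv14-126 in B-1 cells that bind phosphatidylcholine. It measured 5.81, 1.49 and 4.06 TPM in vehicle replicate 1 and rMANF replicates 2 and 3 and was listed at 0 in the other 3 libraries. Vehicle replicate 1 and rMANF replicate 3 held the highest and second highest values of both genes. The germline 3′ ends of the pair (last 60 bases of the GENCODE M21 transcripts, GRCm38) are shown to identify the segments, with the last TGT in capitals, the codon of the conserved cysteine before the third complementarity-determining region.
Ighv11-2, chr12:114048241-114048300, minus strand: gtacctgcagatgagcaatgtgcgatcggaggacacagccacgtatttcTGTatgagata
Igkv14-126, chr6:67896583-67896642, plus strand: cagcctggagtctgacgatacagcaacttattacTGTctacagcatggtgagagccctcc
Rearranged transcripts were not examined, so whether the same cells carried both is not known.

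Genes that define B cells apart from the members were mostly low. Of 25 such genes, 15 stayed under 1 TPM in every library. Among them, and named after its values were seen, the B cell transcription factor gene Pax5 reached at most 0.326 TPM. The most abundant of the list were Cd72 and Cd40, which myeloid cells also express. Cd72, an inhibitory coreceptor, measured 71.3 ± 3.96 TPM under vehicle, against 56.0 ± 8.82 TPM under rMANF without overlap (limma, adjusted p = 0.173), and the receptor gene Cd40 40.2 ± 7.90 and 37.1 ± 1.77 TPM (limma, adjusted p = 0.734; SD, n = 3 each). Of the 8 tested genes of the list 6 lay lower and 2 higher, with a median of −0.15. By limma 0 were called. At an unadjusted p under 0.05, 2 lay lower (Cd72 and Blnk, against 6.63% of all tested genes) and 0 higher (13.9%). The groups did not overlap for the same 2, against 9.02% of tested genes with rMANF lower. Both also belong to the list of receptor signalling genes below.

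Genes of B cell receptor signalling, inhibitory receptors among them, lay lower with rMANF for 15 of 17 tested genes (median −0.29). The groups did not overlap for 6 of the 17, all lower, against 9.02% of tested genes. By limma 0 were called, with 6 lower (6.63% of all tested genes) and 0 higher at an unadjusted p under 0.05. Blnk, the adaptor that links the receptor to phospholipase C, measured 4.73, 4.61 and 5.22 TPM under vehicle, against 3.02, 3.45 and 2.97 TPM under rMANF (log2 difference −0.50 ± 0.13, SE; limma, adjusted p = 0.116). Fcgr2b, the inhibitory Fc receptor, measured 54.2 ± 9.23 and 36.8 ± 5.01 TPM (SD, n = 3 each; limma, adjusted p = 0.128). Bcl10, which carries the signal to NF-κB and was the most abundant of the list ahead of Cd72, measured 78.3 ± 3.53 and 82.5 ± 3.34 TPM (limma, adjusted p = 0.635). Myeloid cells use many of these genes too, and the macrophage markers lay lower for 10 of 10 genes (median −0.45), with Lyz2 at 972 ± 21.9 and 562 ± 152 TPM (limma, adjusted p = 0.0931), C1qa at 574 ± 110 and 430 ± 56.7 TPM and Cd68 at 154 ± 17.3 and 114 ± 9.06 TPM. Their part in the lower signalling genes was not tested.

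Of 12 tested plasma cell genes other than the members, 8 lay lower and 4 higher (median −0.03). By limma 0 were called. At an unadjusted p under 0.05, 2 lay lower (6.63% of all tested genes) and 1 higher (13.9%). Groups did not overlap for 3 genes that lay lower (9.02% of tested genes), namely Sec11c and, named after their values were seen, Ell2 and Slamf7, and for 1 that lay higher, Sdc1 (18.9%). Sec11c, of the signal peptidase complex, measured 148 ± 16.1 TPM under vehicle, against 97.7 ± 6.28 TPM under rMANF (limma, adjusted p = 0.0893). Sdc1, which encodes the plasma cell surface proteoglycan syndecan-1 and is also widely expressed in epithelial and tumour cells, went the other way, at 151 ± 24.0 and 203 ± 16.1 TPM (SD, n = 3 each; limma, adjusted p = 0.135). Ell2, an elongation factor gene used in antibody secretion, measured 22.7 ± 2.11 and 19.0 ± 1.32 TPM (SD, n = 3 each; limma, adjusted p = 0.241). The surface receptor gene Slamf7 measured 15.7 to 22.5 TPM under vehicle, against 8.55 to 15.5 TPM under rMANF (limma, adjusted p = 0.243). Fkbp11, a secretory pathway isomerase gene, measured 174 ± 9.64 and 173 ± 12.1 TPM. Tnfrsf17, named after its values were seen, encodes the plasma cell receptor BCMA, and was listed at 0 in 5 libraries and at 0.154 TPM in rMANF replicate 3. Sec11c, Sdc1 and Fkbp11 thus lay far above Tnfrsf17, and which cells their RNA came from was not tested.

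Factors that attract B cells or keep them alive lay lower for 5 of 7 tested genes (median −0.15), and limma called 0. At an unadjusted p under 0.05, 1 lay lower (Ltb, against 6.63% of all tested genes) and 0 higher (13.9%). The lymphotoxin beta gene Ltb, needed for lymphoid tissue structure, measured 3.81, 7.34 and 4.78 TPM under vehicle, against 2.53, 2.71 and 2.29 TPM under rMANF. The log2 difference was −0.81 ± 0.21 (SE; limma, adjusted p = 0.116), without overlap, which held for 9.02% of tested genes in this direction. The gene of the survival ligand APRIL, Tnfsf13, had a higher mean with rMANF, at 2.46 ± 1.38 and 3.90 ± 0.279 TPM (SD, n = 3 each; limma, adjusted p = 0.280). Over all 16 genes of the list the groups did not overlap for 3, all lower (7.01% of all listed genes). Besides Ltb these were Tnfsf13b and Cxcr5, both under the filter and named after their values were seen. Tnfsf13b, the gene of the survival ligand BAFF, measured 0.835, 1.28 and 0.782 TPM under vehicle, against 0.659, 0.258 and 0.522 TPM under rMANF. The chemokine receptor gene Cxcr4 measured 13.6 ± 1.03 and 16.6 ± 4.66 TPM (limma, adjusted p = 0.490). Among genes of antibody transport and class switching, 2 of 3 tested lay lower (median −0.02) and limma called 0. At an unadjusted p under 0.05, 1 lay higher (Ung, against 13.9% of all tested genes) and 0 lower (6.63%). Fcgrt, which encodes the neonatal Fc receptor that recycles IgG, measured 66.0 ± 9.42 and 64.9 ± 4.91 TPM (limma, adjusted p = 0.952). In the same list the cytosolic antibody receptor gene Trim21 measured 12.1 ± 0.809 and 10.3 ± 1.17 TPM, and Ung, a uracil glycosylase gene, 9.76 ± 1.42 and 12.3 ± 1.15 TPM without overlap (limma, adjusted p = 0.353 and 0.241). Of all tested genes, 18.9% lay higher with rMANF without overlap.

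Jchain and Mzb1 are also expressed by plasmacytoid dendritic cells, so markers of those cells were measured as well. Of 9 tested, 6 lay lower and 3 higher, with a median of −0.0027, and limma called 0. At an unadjusted p under 0.05, 2 lay lower (Lair1 and Cox6a2, against 6.63% of all tested genes) and 0 higher (13.9%). Their defining gene Siglech, named after its values were seen, reached at most 0.404 TPM in any library. Bst2 and Irf7, which interferon induces in many cells, were the most abundant, at 1589 to 1856 TPM and 113 to 155 TPM over the 6 libraries, and overlapped between groups. Lair1 measured 10.9 ± 1.52 and 7.44 ± 1.67 TPM (SD, n = 3 each; limma, adjusted p = 0.164). Cox6a2, which muscle also expresses, was highest in vehicle replicate 2 (25.0 TPM), as were the skeletal muscle markers. It averaged 0.686 TPM with rMANF and so passed the filter at 1 TPM through vehicle libraries. That favoured a lower value in advance, and nothing is read from its count. T cell markers lay lower for 8 of 9 tested genes (median −0.97), and limma called 0. At an unadjusted p under 0.05, 4 lay lower (6.63% of all tested genes) and 1, Cd247, higher (13.9%). The 4 were Trac and, named after their values were seen, Cd3e, Cd3g and Cd2. Their highest sum was in vehicle replicate 2 and not in vehicle replicate 1, where Igkc was highest. Trac measured 12.5, 15.2 and 7.01 TPM under vehicle, against 6.26, 5.66 and 3.20 TPM under rMANF (limma, adjusted p = 0.129). Trbc2, the most abundant, peaked at 37.6 TPM in vehicle replicate 2, against 6.50 to 9.79 TPM in the other 5 libraries. Cd247 lay the other way, at 3.87 ± 0.389 and 5.58 ± 0.486 TPM (SD, n = 3 each; limma, adjusted p = 0.141).

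Genes most like the members across libraries were Gm8369, Gm14519, Grem1, Samhd1 and 2010315B03Rik. Their likeness was measured as the correlation over 6 libraries between log2(TPM + 1) and the mean standardised level of the 6 members over 1 TPM, and ran from 0.981 to 0.988. They rank highest among all tested genes outside the members, so the search itself yields high correlations and nothing is read from their size. Gm14519, Gm8369 and Grem1 averaged 0, 0.885 and 0.484 TPM with rMANF and so passed the filter at 1 TPM through the vehicle libraries. That mean level was 0.58, 0.66 and −0.19 in vehicle replicates 1 to 3, against −0.37 to −0.33 with rMANF, so genes high in vehicle replicates 1 and 2 score as alike. Grem1, which encodes the BMP antagonist gremlin, measured 2.90, 3.13 and 0.980 TPM under vehicle, against 0.443, 0.684 and 0.326 TPM under rMANF. Samhd1, a nucleotide hydrolase gene, measured 108, 108 and 89.1 TPM under vehicle, against 84.3 to 89.1 TPM under rMANF.

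Promoter sequence was matched for 2 of the 9 members, Cd79a and Jchain, in the RefSeq table on GRCm38.p6. The octamer ATGCAAAT, the classical element of immunoglobulin promoters, or its reverse complement ATTTGCAT, was found in 0 of these 2 windows of 300 bases and in 570 of 32851 promoters of that length (1.74%). The immunoglobulin chain genes among the members had no matched window. With 2 windows and so rare an element, 0 was the likely outcome, and nothing is read from it.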

How the data were processed

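RNA was isolated with QIAzol and made into Nextera XT cDNA libraries, a kit that does not mark strand, per the labels' protocols. The submitters' processing notes name cutadapt, fastp, Salmon 0.14.1, HTSeq 0.11.0 and build mm10. Neither the tool behind the final values nor its annotation was stated there. Log2 TPM per gene is what the authors deposited, and −9 was read as 0 TPM. The file held 0 columns of other samples. Depth is unknown, so no counting interval was computed. Differences, rMANF minus vehicle, are on the log2(TPM + 1) scale and so understate those of weakly expressed genes. For genes averaging 1 TPM or more (12865) the test was that of limma (version 3.58.1, R 4.3.3, mean trend, two-sided, Benjamini-Hochberg over all of them, threshold 0.05). The procedure was tested on simulated data. Single values were compared with an exact permutation test over the 20 assignments (scipy 1.17.1).

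The members and gene lists were chosen with earlier results of these data known. Named are the 9 members, all immunoglobulin constant genes, the 3 most abundant variable genes, the 2 most abundant genes and the 2 of smallest p of each cell type or pathway list (the muscle, erythroid, stroma, dividing cell and melanocyte lists are given as sums instead), the 5 genes most like the members, and genes marked as picked after their values were seen. Lists of B cell precursors, lymphoid stroma, dividing cells and melanocytes were also fixed. Coordinates and transcripts are from GENCODE M21, and alignments were made with Biopython 1.88. Other settings were a pseudocount of 0.1 or of 5 TPM, testing without a filter or with one at 5 TPM, 3 other scalings, variances without trend or robust, library weights, a replicate block, each library left out (17 in all) and, chosen after seeing the data, vehicle replicates 1 and 2 left out together.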

Additional observations from a re-analysis of the deposited data

How the results depend on the processing

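Of the members 0 were called under each of 17 other settings and of 1 more chosen after seeing the data (leaving out vehicle replicates 1 and 2 together, which leaves 1 vehicle library assumed to vary like the others). Igkc, Ighm and Mzb1 lay lower under all 18, from −2.99 to −0.59, −1.35 to −0.38 and −2.49 to −0.17. The lowest adjusted p of a member was 0.0919, for Igkc without vehicle replicate 3. The median over tested members (−0.64) was −1.61 with a filter at 5 TPM, which leaves 2 members, ran from −1.08 to −0.41 with 1 library left out, and was −0.18 without vehicle replicates 1 and 2 together. Signs turned for Iglc2 (−0.059 with a pseudocount of 5 TPM, and −0.30 to 0.75 with 1 library left out), Cd79a (−0.011 to 0.24 with 1 library left out), Cd79b (−0.42 to 0.093 likewise) and Ms4a1 (−0.010 to 0.029 likewise). Library weights turned Ighg2c (0.12). Leaving out vehicle replicates 1 and 2 together turned Ighg2c (0.44), Jchain (0.0095) and Ms4a1 (−0.0079). The cause was not tested. Over all tested genes limma called 0, but 737 with library weights, 3 with the replicate block, 13 without vehicle replicates 1 and 2 together and 0 to 4 with 1 library left out. The numbers did not pair the samples (correlations of same-numbered deviations −0.069, 0.029 and 0.0495), and the block called 0 members. The difference in the mean number of variable genes above 0 (−14) ran from −16 to −12.5 with 1 library left out and was −11 at 1 TPM and −17 without vehicle replicates 1 and 2 together.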

Other observations

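Vpreb3, which encodes a chaperone-like protein of immunoglobulin chains in precursor and some mature B cells, was listed at 0 in all 3 vehicle libraries and measured 0.240, 0.725 and 1.48 TPM in rMANF replicates 1, 2 and 3. It was under the filter and not tested, and 12% of all listed genes lay higher in this way without overlap. Of 8 listed genes of B cell precursors, 4 had rows and 1 of these, Il7r, which T cells also express, passed the filter. Il7r measured 3.78, 5.40 and 2.82 TPM under vehicle, against 4.90, 3.30 and 2.40 TPM under rMANF. The 5 lymphoid stroma genes with rows summed to 163 to 258 TPM with vehicle and 212 to 270 TPM with rMANF, nearly all of it Clu, which many cell types express. The 6 genes of dividing cells summed to 937 to 1052 and 916 to 964 TPM, and the 2 melanocyte genes with rows to 7.93 to 12.5 and 7.44 to 10.2 TPM. Nearly all of the melanocyte sum was Mitf (7.36 to 12.2 TPM), whereas Pmel reached at most 0.341 TPM, both named after their values were seen. The other 4 of the 6 listed melanocyte genes had no row.

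The ratio of Igkc to Ighm in TPM was 4.05, 4.14 and 1.51 in vehicle replicates 1 to 3, against 1.71, 0.611 and 2.03 in rMANF replicates 1 to 3. Kappa transcripts thus exceeded mu transcripts in 5 of 6 libraries, and rMANF replicate 2 was the exception.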
